A study of Mus musculus with 20 samples.

Results

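The genes that flank Ncs1 on mouse chromosome 2 were described in Ncs1-/- and wild-type brain. They were taken by position, as rows of either count table on chromosome 2 with a start from 29200000 to 33300000 in build mm10. Ncs1 itself, Fibcd1 and Rpl12 start in this interval but were left out. The set was chosen with earlier results of these data known, so the calls within it are not those of a blind set. The set holds 94 of the 17880 genes listed, 93 of them in the frontal cortex table and 94 in the hippocampus table. Of the 94 genes, 46 lie on the lower-coordinate side of Ncs1 and 48 on the higher side, and 54 are on the same strand as Ncs1 and 40 on the opposite strand. RefSeq types 88 as protein coding, 5 as long noncoding RNA and 1 as a transcribed pseudogene.

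Total RNA was sequenced in 20 libraries, 5 each from Ncs1-/- frontal cortex, wild-type frontal cortex, Ncs1-/- hippocampus and wild-type hippocampus. All 4 groups share the C57Bl6/J background. The labels give no age, sex or targeting construct, and none says whether separate animals gave the libraries of a group. The p-values therefore measure only how far these samples spread, some of which may be technical. Deposited values were expected counts per gene. Levels are CPM, counts relative to library size, with sizes scaled within a region by the trimmed mean of M-values (TMM), and a gene was called at an adjusted p under 0.05 over all genes tested.

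Genes on one stretch of chromosome are inherited together and can share enhancers, boundaries and neighbouring transcripts, yet most carry out unrelated tasks. The stretch around Ncs1, which encodes a calcium sensor of neurons, holds genes for extracellular matrix (Hmcn2, Lamc3), for vesicle fission (Dnm1), for the torsin ATPases of the nuclear envelope and endoplasmic reticulum (Tor1a, Tor1b, Tor2a), for protein glycosylation, for RNA handling (Trub2, Gle1, Nup214) and for signalling (Abl1, Rapgef1).

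Depth ranged from 16.6 to 34.6 M counts per library, with a median of 21 M. Ncs1, the check of the labels, was at 254 to 264 CPM in Ncs1-/- cortex and 348 to 385 CPM in wild-type cortex, and at 282 to 328 CPM in Ncs1-/- hippocampus and 430 to 470 CPM in wild-type hippocampus. It was therefore lower in every Ncs1-/- library but remained well counted, at 0.705 of the wild-type level in cortex and 0.685 in hippocampus. What part of Ncs1 the remaining reads cover cannot be read from a total per gene. Summed hippocampal subfield markers reached 616 to 737 CPM in Ncs1-/- hippocampus and 486 to 775 CPM in wild-type hippocampus, against at most 172 CPM in Ncs1-/- cortex and 194 CPM in wild-type cortex. Markers of striatal neurons summed to 647 to 1150 CPM in Ncs1-/- cortex and 598 to 995 CPM in wild-type cortex. In hippocampus they reached at most 130 CPM in Ncs1-/- and 107 CPM in wild-type libraries. Of these markers 7 of 7 had a positive fold change in cortex and 3 of 7 in hippocampus. Their part in the differences between genotypes or regions was not tested. Choroid plexus and ependyma markers stood apart in 4 libraries, at 234 CPM in Ncs1-/- cortex replicate 1, 3480 and 396 CPM in Ncs1-/- hippocampus replicates 2 and 4 and 2230 CPM in wild-type hippocampus replicate 4, against at most 12.5 CPM in the other cortex and 63.6 CPM in the other hippocampus libraries. In bulk tissue, fewer cells of a type and less RNA per cell cannot be told apart.

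The results turn on 3 flanking genes, Hmcn2, Trub2 and Cercam. The 250 bases before the start of Hmcn2 and of Cercam are shown as the DNA beside which their levels changed, and the same window of Coq4 because it lies inside Trub2, its head-to-head neighbour. Sequences come from RefSeq, assembly GRCm38.p6, read 5′ to 3′ on the strand of the gene; 86 of the 94 genes had such a window. Capitals mark matches, on either strand, to GGGCGG (a GC box) or CACGTG (an E-box); TATAAA and CCAAT were also searched and none was found in these 3 windows.
Hmcn2, chr2:31314082-31314331, plus strand: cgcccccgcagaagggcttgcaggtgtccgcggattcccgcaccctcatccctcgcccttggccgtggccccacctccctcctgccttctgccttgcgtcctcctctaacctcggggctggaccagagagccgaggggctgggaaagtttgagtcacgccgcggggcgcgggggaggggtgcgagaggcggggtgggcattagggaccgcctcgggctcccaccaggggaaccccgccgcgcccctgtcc
Cercam, chr2:29869244-29869493, plus strand: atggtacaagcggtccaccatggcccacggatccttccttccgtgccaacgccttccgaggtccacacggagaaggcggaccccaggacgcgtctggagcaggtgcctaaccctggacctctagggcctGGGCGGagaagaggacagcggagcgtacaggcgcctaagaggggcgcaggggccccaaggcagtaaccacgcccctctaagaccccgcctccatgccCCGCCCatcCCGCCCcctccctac
Coq4, chr2:29787243-29787492, plus strand: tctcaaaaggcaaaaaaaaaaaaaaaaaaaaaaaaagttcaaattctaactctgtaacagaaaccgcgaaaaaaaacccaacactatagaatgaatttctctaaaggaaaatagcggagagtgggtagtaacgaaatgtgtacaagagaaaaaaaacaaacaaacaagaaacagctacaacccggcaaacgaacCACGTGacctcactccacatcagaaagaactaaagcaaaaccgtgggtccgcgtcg

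The Hmcn2 window is 72.4% G and C with 22 CpG dinucleotides and holds none of the 4 motifs. The Cercam window is 67.6% G and C with 18 CpG dinucleotides and holds GGGCGG 3 times, beginning 121, 24 and 15 bases before the gene start. The Coq4 window, at 37.2% G and C with 11 CpG dinucleotides, holds CACGTG once, 56 bases before the start. The window before Trub2 itself, not shown, is 43.6% G and C with 7 CpG dinucleotides and holds none of the 4 motifs. Across the 86 windows of flanking genes the median was 61.2% G and C and 17 CpG dinucleotides, against 52% and 6 over 27025 RefSeq windows. GGGCGG was present in 57% of the flanking windows and 32.9% of all windows, CACGTG in 12.8% and 6.05%, CCAAT in 39.5% and 34.5%, and TATAAA in 0 and 13%. These are matches of letters only. The sets also differ, since all flanking genes are listed in the count tables, while the 27025 RefSeq windows outnumber the 17880 genes listed. The gap between the sets was therefore not shown to be a trait of this stretch.

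In frontal cortex 2 flanking genes rose in Ncs1-/- libraries, Hmcn2 and Trub2, and 0 fell. These 2 of 87 tested stand beside 0.027% called over all 14823 genes, 0.0135% higher and 0.0135% lower, that is 4 genes in all, Ncs1 among them. In hippocampus Hmcn2 and Trub2 rose and Cercam fell, 3 of 88 tested, beside 0.0266% called over all 15042 genes, 0.0133% higher and 0.0133% lower. That is 4 genes in all, these 3 and Ncs1. The other genes of the interval gave no call in either region.

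Hmcn2 encodes hemicentin 2, a large extracellular matrix protein built of immunoglobulin repeats, and its gene (chr2:31314332-31460738) begins 18.9 kb beyond the end of Ncs1 (chr2:31245923-31295471) on the same strand. In cortex it had 3.35, 5.21, 4.18, 4.01 and 5.35 CPM in Ncs1-/- libraries, against 0.447, 0.655, 0.306, 0.388 and 0.773 CPM in wild-type libraries. In hippocampus it had 3.15, 3.86, 8.06, 5.62 and 4.18 CPM in Ncs1-/- libraries, against 0.58, 0.195, 0.467, 0.429 and 0.492 CPM in wild-type libraries. The lowest Ncs1-/- library thus lay several-fold above the highest wild-type library in both regions, and 1 Ncs1-/- hippocampus library, replicate 3, was higher than the rest. Wild-type levels rested on 8 to 15 counts per cortex library and 4 to 12 counts per hippocampus library, so the size of the fold is less sure than its direction. With so few wild-type counts, Hmcn2 could pass the filter on low counts through its Ncs1-/- libraries alone. The log2 fold change was 3.11 (SE 0.23) in cortex and 3.50 (SE 0.31) in hippocampus, with edgeR adjusted p-values of 1.75e-05 and 0.00145.

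Trub2 encodes a mitochondrial pseudouridine synthase, an enzyme of mitochondrial RNA, and lies 1.46 Mb away on the lower side and the opposite strand (chr2:29774684-29787671). In cortex it had 33.1, 35.7, 36.4, 34.8 and 36.2 CPM in Ncs1-/- libraries, against 22.2, 23.0, 25.5, 27.4 and 22.8 CPM in wild-type libraries. In hippocampus it had 36.3, 32.3, 35.2, 34.6 and 33.6 CPM in Ncs1-/- libraries, against 23.5, 21.1, 26.3, 23.9 and 20.4 CPM in wild-type libraries. The groups did not overlap in either region and the spread within each was small. Its level was 1.46-fold higher in cortex (log2 fold change 0.54, SE 0.06, edgeR adjusted p 0.00293) and 1.49-fold higher in hippocampus (0.58, SE 0.07, edgeR adjusted p 0.0121). The hippocampal call was lost, with edgeR adjusted p-values of 0.0567 to 0.0779, when any 1 of Ncs1-/- replicates 1, 3 or 4 or wild-type replicate 2 was left out, while the log2 fold change stayed at 0.54 to 0.63.

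Coq4, a gene of coenzyme Q synthesis (chr2:29787493-29797935), overlaps the start of Trub2 by 179 bases on the other strand. In cortex it had 13.4, 12, 12, 12.4 and 9.37 CPM in Ncs1-/- libraries, against 13.4, 12, 11.2, 12.2 and 10.7 CPM in wild-type libraries. In hippocampus it had 12.2, 10.9, 9.87, 9.36 and 11.0 CPM in Ncs1-/- libraries, against 13.5, 12.3, 12.4, 11.0 and 12.2 CPM in wild-type libraries. The groups overlapped in both regions, with log2 fold changes of -0.00 (SE 0.09) and -0.20 (SE 0.09) and edgeR adjusted p-values of 0.986 and 0.991; the cortex value turned sign with the library left out. No source used here says whether reads were counted by strand, and those within the 179 shared bases could have gone to either gene.

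Cercam, which encodes cerebral endothelial cell adhesion molecule, a relative of the collagen galactosyltransferases, lies 1.36 Mb away on the lower side and the same strand (chr2:29869494-29882840). In cortex it had 2.25, 1.43, 1.36, 2.15 and 2.22 CPM in Ncs1-/- libraries, against 3.35, 3.60, 3.68, 4.84 and 3.82 CPM in wild-type libraries. In hippocampus it had 2.08, 1.46, 1.30, 1.69 and 1.36 CPM in Ncs1-/- libraries, against 4.54, 4.34, 3.73, 3.90 and 3.98 CPM in wild-type libraries. All 5 Ncs1-/- libraries lay below all 5 wild-type libraries in each region. Cercam fell in hippocampus by 1.37 on the log2 scale (SE 0.15, edgeR adjusted p 0.00337). In cortex the log2 fold change was -1.04 (SE 0.17) and the edgeR adjusted p 0.0719, which missed the threshold. It passed in cortex without wild-type replicate 5, at an edgeR adjusted p of 0.0211, and in the edgeR fit over all 20 libraries, at 0.008. The other alternatives did not call it. DESeq2 gave Cercam no adjusted p in cortex, where its unadjusted p was 9.95e-08. In GENCODE vM21 the antisense gene 2600006K01Rik shares 824 bases with Cercam at its start and was not analysed here, so without a known strand setting those reads are uncertain.

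Slc27a4, a fatty acid transport protein, and Urm1, a ubiquitin-like modifier of transfer RNA, lie between Coq4 and Cercam and were picked for this after their values were seen. Slc27a4 was at 69.8 to 78.3 CPM in Ncs1-/- cortex and 72.3 to 82.5 CPM in wild-type cortex, and at 71.1 to 78.0 CPM in Ncs1-/- hippocampus and 70.9 to 80.7 CPM in wild-type hippocampus. Urm1 was at 20.7 to 24.6 CPM in Ncs1-/- cortex and 21.9 to 25.6 CPM in wild-type cortex, and at 21.9 to 28.3 CPM in Ncs1-/- hippocampus and 23.1 to 27.7 CPM in wild-type hippocampus. Both genes overlapped between the genotypes in both regions, as most genes did. Groups did not overlap for 2.15% of all genes tested in cortex and 0.479% in hippocampus.

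**Figure D1:**
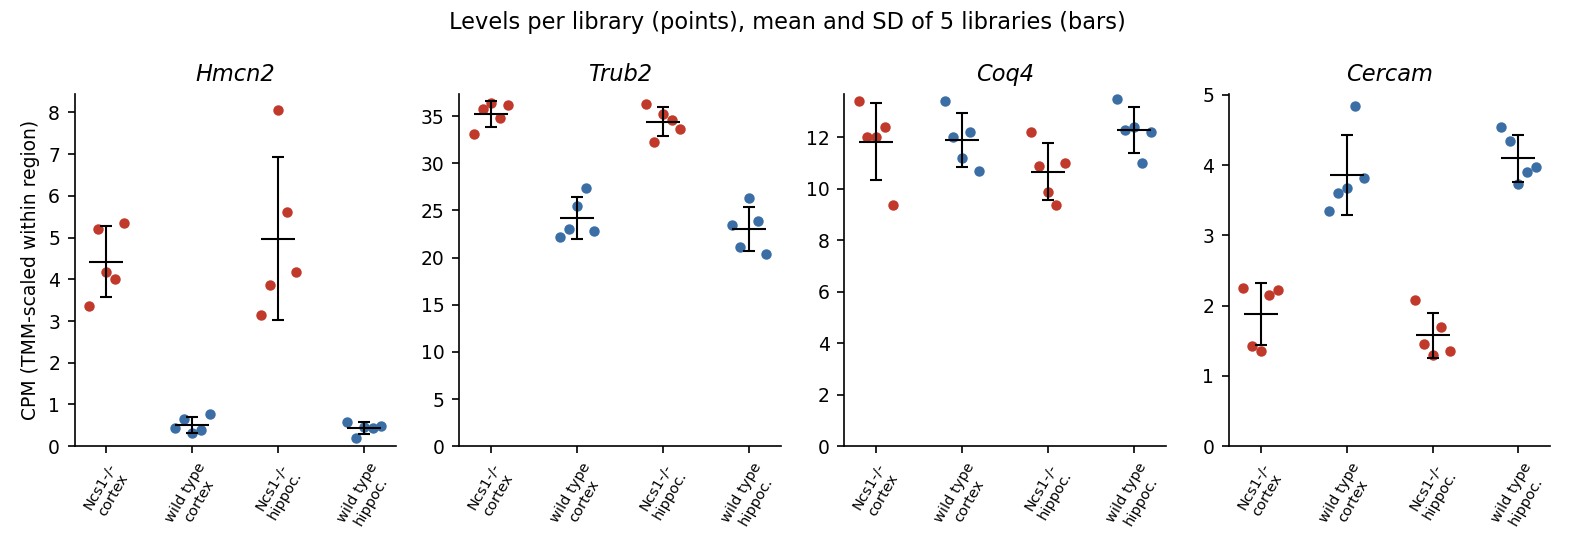
Levels of Hmcn2, Trub2, Coq4 and Cercam in each library (points) in CPM on axes from 0, with the mean and SD of 5 libraries (bars), Ncs1-/- left of wild type within cortex and within hippocampus. Ncs1-/- and wild-type points are apart for Hmcn2, Trub2 and Cercam in both regions and overlap for Coq4.

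Markers of cells that could carry an adhesion or matrix gene were set beside Hmcn2 and Cercam. The 7 endothelial markers summed to 240 to 278 CPM in Ncs1-/- cortex and 235 to 270 CPM in wild-type cortex, and to 210 to 237 CPM in Ncs1-/- hippocampus and 210 to 230 CPM in wild-type hippocampus. The 7 markers of meningeal fibroblasts summed to 106 to 158 CPM in Ncs1-/- cortex and 74.8 to 141 CPM in wild-type cortex, and to 101 to 361 CPM in Ncs1-/- hippocampus and 124 to 325 CPM in wild-type hippocampus. The 6 markers of pericytes and smooth muscle summed to 227 to 246 CPM in Ncs1-/- cortex and 204 to 240 CPM in wild-type cortex, where 5 of 6 had a positive fold change and 3 of 6 an unadjusted p under 0.05, and to 197 to 294 CPM in Ncs1-/- hippocampus and 202 to 250 CPM in wild-type hippocampus. Oligodendrocyte markers summed to 3400 to 3680 CPM in Ncs1-/- cortex and 2960 to 3890 CPM in wild-type cortex, and to 3550 to 5420 CPM in Ncs1-/- hippocampus and 3640 to 5040 CPM in wild-type hippocampus, where 7 of 7 had a positive fold change. Of the oligodendrocyte markers in cortex, 6 of 7 had a positive fold change. Astrocyte markers, from another list, had 0 of 7 with a positive fold change in each region. They summed to 6470 to 6770 CPM in Ncs1-/- cortex and 6690 to 7550 CPM in wild-type cortex. In hippocampus they summed to 5860 to 6730 CPM in Ncs1-/- libraries and 6260 to 7000 CPM in wild-type libraries. Each of these sums overlapped between genotypes. No marker on any of the 12 lists was called, and the part of these cells in the differences of Hmcn2 and Cercam was not tested.

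The genes nearest Ncs1 showed no such change apart from Hmcn2. On the lower side the 4 nearest tested genes were Gpr107, a Golgi membrane protein, the long noncoding RNA D330023K18Rik, Fnbp1, a membrane-bending protein of endocytosis, and the deubiquitinase Usp20. Gpr107, whose end lies 29.4 kb from Ncs1, was at 40.9 to 44.7 CPM in Ncs1-/- cortex and 42.5 to 45.6 CPM in wild-type cortex, with log2 fold changes of -0.04 (SE 0.04) in cortex and 0.01 (SE 0.05) in hippocampus. D330023K18Rik was near 1 CPM, with log2 fold changes of -0.02 (SE 0.24) and 0.20 (SE 0.19) in cortex and hippocampus. Usp20 was at 59.5 to 63.1 CPM in Ncs1-/- cortex and 59.3 to 61.3 CPM in wild-type cortex and did not differ by more than its error in either region, at 0.02 (SE 0.04) and -0.04 (SE 0.05).

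Fnbp1 was the 1 further gene with an unadjusted p under 0.05 in both regions. In cortex it had 113, 129, 122, 117 and 118 CPM in Ncs1-/- libraries, against 111, 106, 105, 108 and 115 CPM in wild-type libraries. In hippocampus it had 122, 118, 119, 122 and 128 CPM in Ncs1-/- libraries, against 117, 104, 110, 110 and 120 CPM in wild-type libraries. The ranges of the groups overlapped in both regions. Its log2 fold changes were 0.14 (SE 0.04) and 0.12 (SE 0.05), with edgeR adjusted p-values of 0.235 in cortex and 0.991 in hippocampus.

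On the higher side, beyond Hmcn2, lie Ass1 (argininosuccinate synthase, of arginine synthesis), Gm5424, Fubp3 (a protein that binds single-stranded nucleic acids), Prdm12 (a transcriptional regulator of sensory neuron development) and the tyrosine kinase Abl1. Gm5424, the transcribed pseudogene, covers nearly the same bases as Ass1 on the same strand, 50322 of them, so the split of reads between the pair is uncertain. Ass1 was at 9.43 to 15.5 CPM in Ncs1-/- cortex and 7.35 to 12 CPM in wild-type cortex, with log2 fold changes of 0.30 (SE 0.15) in cortex and -0.01 (SE 0.12) in hippocampus. Gm5424 ranged from 0.868 to 3.85 CPM in Ncs1-/- cortex and from 0.98 to 5.38 CPM in wild-type cortex, with log2 fold changes of -0.54 (SE 0.41) in cortex and -0.23 (SE 0.51) in hippocampus. Neither was called, and both hippocampal values turned sign under some alternatives. Fubp3 had log2 fold changes of 0.11 (SE 0.06) and 0.06 (SE 0.06) and was not called.

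Abl1 had 59.3, 57.8, 58.1, 58.8 and 56.1 CPM in Ncs1-/- cortex, against 53.2, 53.2, 50.8, 54.5 and 55.1 CPM in wild-type cortex. The groups did not overlap, by a gap of about 1 CPM, and the log2 fold change of 0.12 (SE 0.04) had an edgeR adjusted p of 0.235. In hippocampus Abl1 was at 46.5 to 59.7 CPM in Ncs1-/- libraries and 52.3 to 57.9 CPM in wild-type libraries. In cortex 7 of 87 flanking genes had groups that did not overlap, 4 higher and 3 lower, or 8.05%, beside 2.15% of all genes tested, of which 0.978% higher and 1.17% lower. Besides Hmcn2, Trub2 and Cercam these were Abl1, Angptl2, Zer1 (a substrate receptor of an E3 ubiquitin ligase) and Asb6 (a SOCS-box protein). In hippocampus only Hmcn2, Trub2 and Cercam did so, 3.41% of 88 beside 0.479% of all genes, 0.279% higher and 0.199% lower. In both regions and in the same direction the same 3 did so of 86 tested in both, against 6 of 14613 genes, or 0.0411%; Ncs1 is another of the 6.

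Zer1 was at 130 to 145 CPM in Ncs1-/- cortex and 148 to 152 CPM in wild-type cortex, a log2 fold change of -0.13 (SE 0.04) with an edgeR adjusted p of 0.235. Asb6 was at 15.9 to 17.8 CPM in Ncs1-/- cortex and 18.4 to 20.4 CPM in wild-type cortex, at -0.17 (SE 0.06) with an edgeR adjusted p of 0.259. In hippocampus both overlapped, Zer1 at 170 to 187 CPM in Ncs1-/- libraries and 179 to 186 CPM in wild-type libraries, and Asb6 at 17.3 to 19.9 CPM in Ncs1-/- libraries and 17.6 to 21.5 CPM in wild-type libraries. The protein-coding gene 1110008P14Rik had 46.9, 39.9, 43.0, 37.0 and 43.0 CPM in Ncs1-/- cortex, against 59.4, 56.5, 61.1, 54.6 and 43.4 CPM in wild-type cortex. Only wild-type replicate 5 lay among the Ncs1-/- values. Its log2 fold change was -0.39 (SE 0.09) with an edgeR adjusted p of 0.190, which was 0.00872 without that library and 0.00768 with DESeq2. Its hippocampal level was 28.0 to 35.5 CPM in Ncs1-/- libraries and 29.0 to 40.6 CPM in wild-type libraries.

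The genotype effect was then set against distance and strand. In cortex the median absolute log2 fold change was 0.12 for the 18 tested genes with a gap of up to 0.5 Mb to Ncs1, 0.10 for 21 genes at 0.5 to 1 Mb, 0.08 for 39 genes at 1 to 1.5 Mb and 0.08 for 9 genes beyond. In hippocampus the medians in the same order were 0.06 for 17 genes, 0.06 for 21, 0.07 for 41 and 0.05 for 9. Over all genes tested the median was 0.08 in cortex and 0.06 in hippocampus. The median of the nearest cortex bin lay above that of all genes, and the other medians lay near it. Calls fell in the nearest bin (Hmcn2) and at 1 to 1.5 Mb (Trub2 in cortex, Trub2 and Cercam in hippocampus), and 0 fell at 0.5 to 1 Mb or beyond 1.5 Mb.

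Across genes, the Spearman correlation of gap and absolute log2 fold change was -0.15 over 87 genes in cortex and 0.06 over 88 in hippocampus, as descriptions of genes that share libraries. With mean level it was -0.35 and -0.43. By side in cortex, the correlation with gap was 0.02 over 43 lower-side genes and -0.36 over 44 higher-side genes, where that with mean level was -0.38. In hippocampus it was 0.13 over 43 lower-side and 0.03 over 45 higher-side genes. The 7 higher-side genes within 0.5 Mb, Hmcn2 among them, had a median absolute log2 fold change of 0.30 in cortex, and the 11 lower-side genes there 0.05. The same medians in hippocampus were 0.05 over 6 higher-side genes and 0.06 over 11 lower-side genes, so the cortex contrast was not seen there. By strand in cortex, 10 of 34 opposite-strand genes (29.4%) and 5 of 53 same-strand genes (9.4%) had an unadjusted p under 0.05, beside 14.8% of all genes. In hippocampus the order was the other way, with 3 of 36 opposite-strand genes (8.3%) and 6 of 52 same-strand genes (11.5%), beside 3.78% of all genes. By side, 1 gene was called on each side in cortex, and 2 lower-side genes and 1 higher-side gene in hippocampus. Outside the interval but within 10 Mb of Ncs1 on the chromosome, 0 of 149 genes were called in cortex and 0 of 153 in hippocampus. Of them 34 (22.8%) and 7 (4.6%) had an unadjusted p under 0.05, in cortex a larger share than among the flanking genes. Farther than 10 Mb on the same chromosome, 1 of 944 genes was called in cortex and 0 of 956 in hippocampus. On other chromosomes 0 of 13640 genes were called in cortex and 0 of 13842 in hippocampus.

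**Figure D2:**
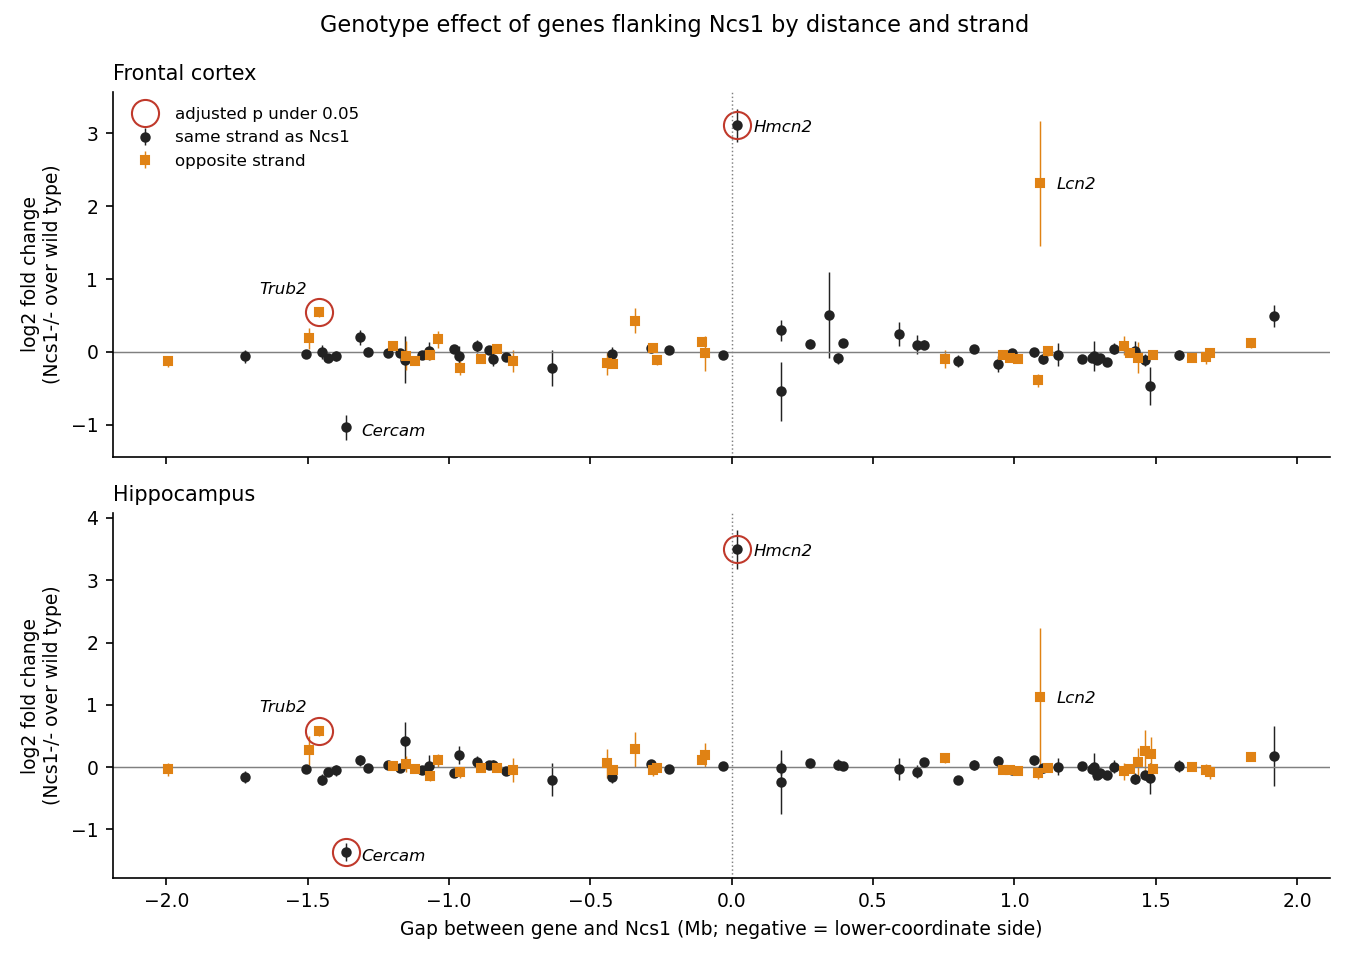
Log2 fold change of each tested flanking gene, Ncs1-/- over wild type (points, bars are SE), against its gap to Ncs1 in Mb, lower-coordinate side negative, in frontal cortex (top) and hippocampus (bottom), with same-strand genes as black circles, opposite-strand genes as orange squares and calls ringed in red. Hmcn2 stands out beside Ncs1 and Trub2 and Cercam near -1.4 Mb, while genes around them lie close to 0.

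Set against all genes, the 87 cortex genes had 15 with an unadjusted p under 0.05, or 17.2% beside 14.8%, and the 88 hippocampus genes had 9, or 10.2% beside 3.78%. Without Hmcn2, Trub2 and Cercam these were 12 of 84 (14.3%) and 6 of 85 (7.1%). The median log2 fold change was -0.04 in cortex and -0.01 in hippocampus, against 0.00 and 0.01 over all genes, and 32 of 87 and 39 of 88 genes had a positive value, or 36.8% beside 50.6% and 44.3% beside 53.1%. The 90th percentile of the absolute log2 fold change was 0.41 in cortex, where it was 0.27 over all genes, and 0.22 in hippocampus, where it was 0.23. Without Hmcn2, Trub2 and Cercam it was 0.24 in cortex, below that of all genes, and 0.20 in hippocampus.

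**Figure D3:**
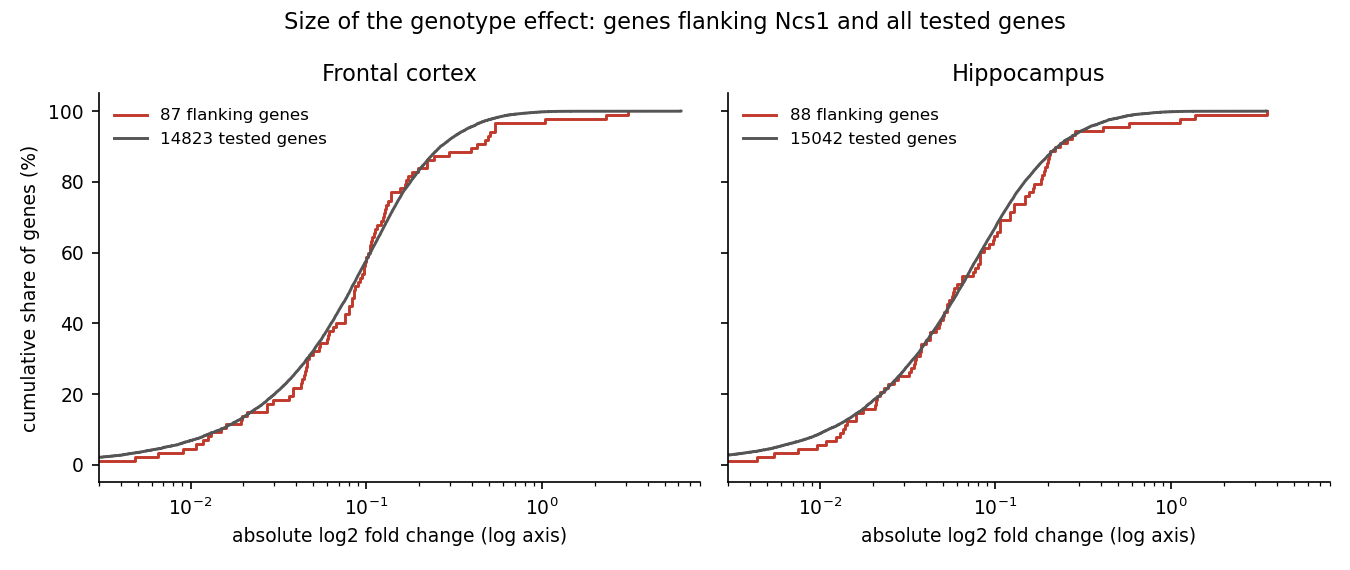
Cumulative share of genes (percent) by absolute log2 fold change (log axis), Ncs1-/- over wild type, for flanking genes (red) and all tested genes (grey), in frontal cortex (left) and hippocampus (right). The curves run together up to about 0.2, and the largest flanking value is 3.11 in cortex and 3.50 in hippocampus, both from Hmcn2.

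By function, the calls between genotypes fell in 2 of 9 gene lists. Among matrix, adhesion and secreted genes, 6 of 6 were tested: in cortex Hmcn2 alone rose and 0 fell, with a median log2 fold change of 0.37, and in hippocampus Hmcn2 rose and Cercam fell, with a median of 0.09. Angptl2, a secreted angiopoietin-like protein, had 4.62, 3.98, 5.53, 4.11 and 4.15 CPM in Ncs1-/- cortex, against 2.24, 3.79, 2.83, 3.29 and 3.71 CPM in wild-type cortex. The groups did not overlap, and the log2 fold change of 0.49 (SE 0.15) had an edgeR adjusted p of 0.235. In hippocampus Angptl2 had 2.74, 11.1, 2.56, 4.25 and 8.16 CPM in Ncs1-/- libraries, against 1.59, 6.63, 3.22, 9.43 and 4.39 CPM in wild-type libraries. The 4 highest were Ncs1-/- replicates 2 and 5 and wild-type replicates 2 and 4, the 4 libraries in which meningeal fibroblast markers summed highest, at 361, 300, 325 and 281 CPM; the part of these cells was not tested. Angptl2 also lies wholly within Ralgps1 on the other strand, over 31754 bases, so its reads are uncertain without a known strand setting.

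Lcn2, a secreted siderophore-binding protein of inflammation, had 0.116, 4.13, 3.55, 6.66 and 0.300 CPM in Ncs1-/- cortex, against 2.07, 0.140, 0.0383, 0.242 and 0.773 CPM in wild-type cortex. High libraries occurred in both groups, which overlapped, and the log2 fold change of 2.32 (SE 0.86) had an edgeR adjusted p of 0.266. In hippocampus it was above 1 CPM in 1 Ncs1-/- library, at 5.31 CPM, and in 1 wild-type library, at 1.64 CPM. Lamc3, a laminin chain, was at 9.54 to 11.8 CPM in Ncs1-/- cortex and 5.48 to 12.4 CPM in wild-type cortex. Eng, a co-receptor for transforming growth factor beta in endothelium, was at 18.0 to 22.5 CPM in Ncs1-/- cortex and 17.8 to 22.1 CPM in wild-type cortex.

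In RNA processing, 9 of 9 genes were tested and Trub2 alone rose in each region, with a group median of 0.04 in both. Nup214, of the nuclear pore, was at 0.10 (SE 0.06) in cortex. Of 8 synaptic vesicle and traffic genes 0 were called in either region, and the median was -0.05 in cortex and -0.02 in hippocampus. Dnm1, the neuronal dynamin that cuts endocytic vesicles, was at -0.10 (SE 0.05) in cortex, and Sh3glb2, an endophilin, at -0.10 (SE 0.04), with edgeR adjusted p-values of 0.329 and 0.300. None of 3 torsin genes was called between genotypes; Tor1a, which encodes torsinA, was at 0.05 (SE 0.05) in cortex.

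Mitochondrial and metabolic genes, 18 tested, had 0 calls in each region and medians of -0.06 in cortex and -0.03 in hippocampus. Ak1, an adenylate kinase, was at 79.0 to 91.3 CPM in Ncs1-/- cortex and 86.3 to 94.4 CPM in wild-type cortex, at -0.14 (SE 0.05) with an edgeR adjusted p of 0.243. Ptges, a prostaglandin E synthase, was at 3.50 to 7.61 CPM in Ncs1-/- cortex and 3.22 to 4.35 CPM in wild-type cortex, at 0.43 (SE 0.18) with an edgeR adjusted p of 0.295. The glycosylation list, 7 tested, and the list of kinases, GTPase regulators and signalling, 10 tested, likewise had 0 calls. Their cortex medians were -0.10 and -0.01, and the second list includes Aif1l. Dolk, the dolichol kinase, was lowest of the glycosylation list in cortex at -0.22 (SE 0.09). The list named cytoskeleton and cilia, 7 tested, had 0 calls and a cortex median of 0.04. Its genes include Zer1, Kyat1 and Lrrc8a, so the name covers only part of it. Of the transcription and chromatin genes 7 were tested in cortex and 6 in hippocampus, with 0 calls.

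In hippocampus the genes next after the 3 calls by p were Plpp7, Fnbp1, Coq4, St6galnac4, Ralgps1 and Sh2d3c, with unadjusted p-values of 0.00625 to 0.0498 and edgeR adjusted p-values of 0.991. Plpp7, of the phospholipid phosphatase family, had 16.2, 14.4, 14.0, 14.0 and 14.6 CPM in Ncs1-/- hippocampus, against 17.4, 16.2, 16.6, 16.6 and 17.6 CPM in wild-type hippocampus. The groups touched at 1 library each, and the log2 fold change was -0.21 (SE 0.06). The sialyltransferase gene St6galnac4 was at -0.12 (SE 0.05), the Ral exchange factor gene Ralgps1 at 0.16 (SE 0.07) and the adaptor gene Sh2d3c at -0.19 (SE 0.09).

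Whether the genotype effect differed between the regions was tested by the interaction, the effect in hippocampus minus the effect in cortex over 20 libraries. With edgeR's quasi-likelihood test 0 of 88 flanking genes passed, beside 0% of 15310 genes, and limma-voom and DESeq2 also gave 0 flanking genes. For Hmcn2 the interaction was 0.38 (SE 0.43), for Trub2 0.03 (SE 0.10) and for Cercam -0.33 (SE 0.23). At an unadjusted p under 0.05 there was 1 flanking gene, 1110008P14Rik, at 0.29 (p 0.048 with edgeR's quasi-likelihood test), or 1.14% beside 1.4% of all genes. Cercam, called in hippocampus and not in cortex, was thus not shown to differ between the regions.

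Side by side, 58 of 86 flanking genes tested in both regions had the same sign, 67.4% beside 71.1% of all genes, and 4 had an unadjusted p under 0.05 in both with the same sign, 4.65% beside 1.39%. The Spearman correlation of the cortex and hippocampus log2 fold changes was 0.49 over these 86 genes, the same as over 14613 genes, and 0.44 without Hmcn2, Trub2 and Cercam.

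**Figure D4:**
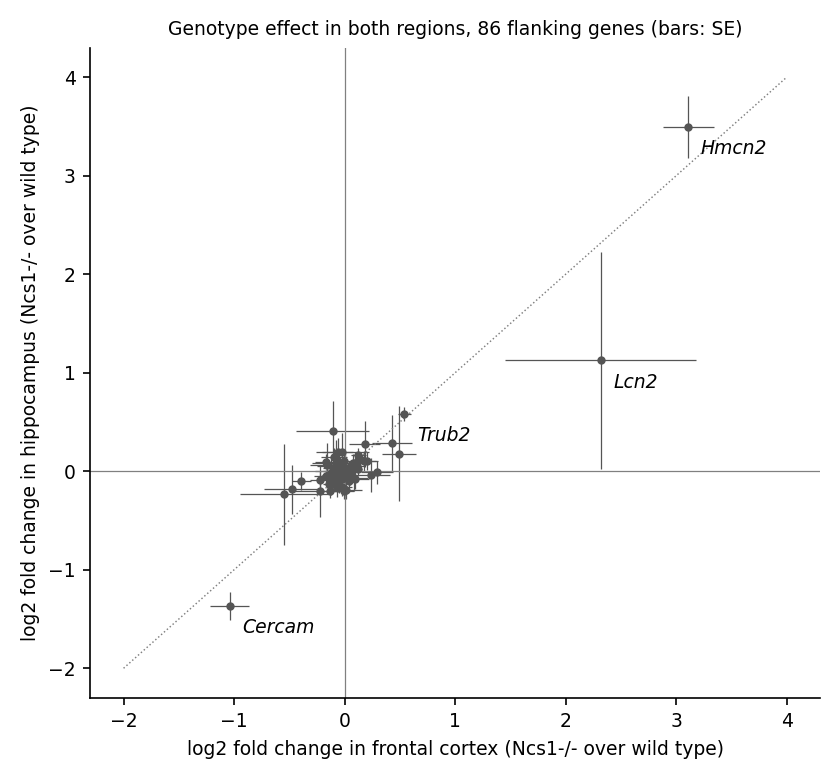
Log2 fold change, Ncs1-/- over wild type, in hippocampus (vertical) against frontal cortex (horizontal) for 86 flanking genes, with SE bars and the line of equal effect dotted. Hmcn2, Trub2 and Cercam lie near the line away from the origin, Lcn2 has wide errors in both regions, and the rest crowd around 0.

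Some flanking genes also differed between regions, a smaller share than over all genes. In Ncs1-/- mice 28 of 88 (31.8%) differed between hippocampus and cortex, 15 higher and 13 lower in hippocampus, beside 41.9% of all genes, 21.7% higher and 20.2% lower. In wild type 28 of 88 (31.8%) differed, 14 higher and 14 lower, beside 40% of all genes, 20.5% higher and 19.4% lower. Of these, 24 were called in the same direction in both genotypes, 27.3% beside 34.2%. Hippocampus and cortex libraries carry different sequencing lane numbers in their descriptions, so region and lane cannot be told apart. Hmcn2, Trub2 and Cercam were not among the region calls.

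All 3 torsin genes were higher in hippocampus in both genotypes. On a scale shared by the 20 libraries, Tor1a was at 24.7 ± 3.46 CPM in Ncs1-/- hippocampus and 17.8 ± 0.455 CPM in Ncs1-/- cortex, and at 25.7 ± 1.86 CPM in wild-type hippocampus and 17.3 ± 0.300 CPM in wild-type cortex (SD, n = 5 each). Its log2 fold change, hippocampus over cortex, was 0.47 (SE 0.07) in Ncs1-/- and 0.57 (SE 0.07) in wild type, with edgeR adjusted p-values of 2.52e-05 and 1.99e-06. Tor1b differed by 0.46 (SE 0.06) in each genotype. Tor2a differed by 0.24 (SE 0.08) in Ncs1-/- and 0.27 (SE 0.08) in wild type; it overlaps Ttc16 on the other strand. Usp20, Med27 (a Mediator subunit) and Fpgs (folylpolyglutamate synthase) were higher in hippocampus as well, at 0.33, 0.28 and 0.45 in Ncs1-/- and 0.39, 0.39 and 0.60 in wild type. Aif1l, a relative of the microglial protein Iba1, passed in wild type at 0.43 (SE 0.12, edgeR adjusted p 0.00703) and not in Ncs1-/- at 0.25 (SE 0.12, edgeR adjusted p 0.102).

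Garnl3, which carries a Rap GTPase-activating domain, was the flanking gene with the largest called region difference. It was at 27.7 ± 1.47 CPM in Ncs1-/- hippocampus and 83.3 ± 2.39 CPM in Ncs1-/- cortex, and at 29.5 ± 6.18 CPM in wild-type hippocampus and 84.5 ± 6.81 CPM in wild-type cortex (SD, n = 5 each). The log2 fold change was -1.59 (SE 0.09) in Ncs1-/- and -1.52 (SE 0.09) in wild type, with edgeR adjusted p-values of 9.76e-12 and 2.11e-11. Gm13420, Fam78a, Pip5kl1, 1110008P14Rik and Ier5l were also lower in hippocampus, with log2 fold changes of -1.12 to -0.46 in Ncs1-/- and -1.20 to -0.74 in wild type.

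**Figure D5:**
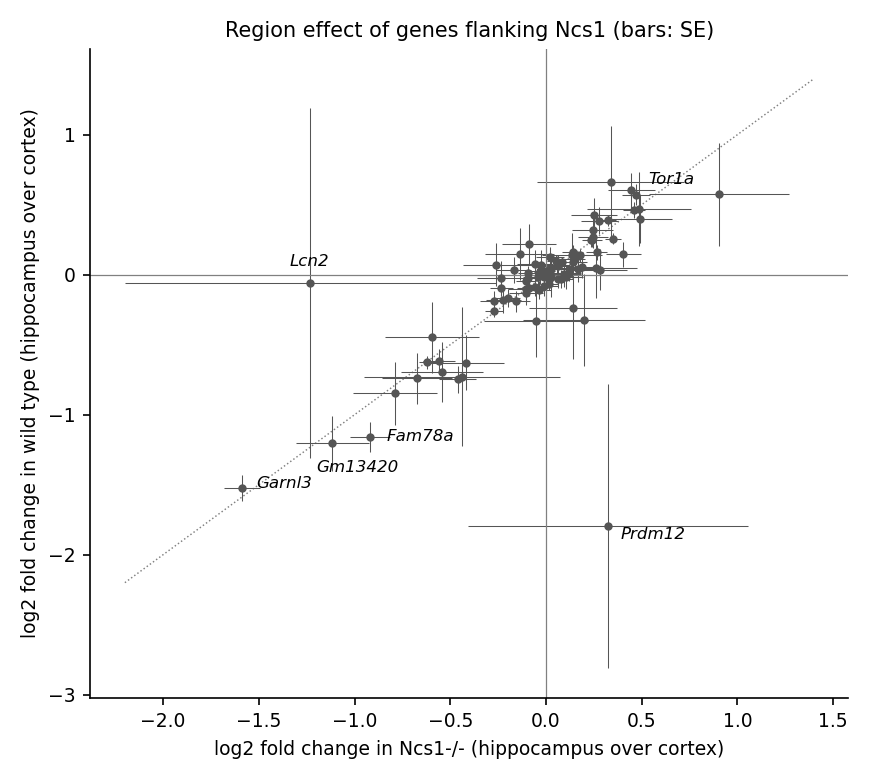
Log2 fold change, hippocampus over frontal cortex, in Ncs1-/- (horizontal axis) and wild type (vertical axis) for the tested flanking genes, with SE bars and the line of equal effect dotted. Tor1a lies above 0 and Garnl3, Gm13420 and Fam78a below 0 in both genotypes, and Prdm12 and Lcn2, off the line, have wide errors.

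Of the 94 genes, 7 could not be tested in cortex and 6 in hippocampus, where counts were too low for the filter or, for Gm14486 in cortex, the gene was not listed. In both regions these included the long noncoding RNAs 1700084E18Rik and Gm13427, the homeobox gene Prrx2 and the neuropeptide gene Qrfp. Ttc16 and Cfap157 were tested in hippocampus alone and Prdm12 in cortex alone. In hippocampus Prdm12 had 6, 34, 2, 67 and 7 counts in Ncs1-/- libraries, against 1, 2, 8, 1 and 3 counts in wild-type libraries. Replicates 2 and 4 of Ncs1-/- carried most of them and the groups overlapped. In cortex it was at 0.120 to 1.16 CPM in Ncs1-/- libraries and 0.155 to 1.17 CPM in wild-type libraries, with a log2 fold change of 0.51 (SE 0.59) that was not called. The counts of genes above are over those tested, and a gene counted in 1 genotype alone could pass the filter through that genotype.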

How the data were processed

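The 20 libraries, made from total RNA, were grouped by title; the RNeasy Mini kit is named in the labels' protocols. Each region has 1 deposited table of expected counts: in each library 22.6% to 27.3% of values were more than 0.001 from a whole number. STAR 2.7.3a, Partek and build mm10 are named in the submitters' processing notes. For the annotation, the strand setting and the filter nothing is stated in the sources used here. Coordinates are those of the deposited tables, counted from 1. Of the 94 flanking genes, 93 matched a RefSeq symbol and 41 had the same start and end there.

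Rounded counts went into edgeR 4.0.16 with R 4.3.3 (filterByExpr, TMM, quasi-likelihood tests, Benjamini-Hochberg at 0.05 over all genes), by genotype within each region of 10 libraries and with 4 groups over 20 libraries for the interaction and the regions. Standard errors were derived from the fold change and F statistic. The fits were tested on simulated counts with known changes. No 2 libraries of a group agreed within sampling noise (lowest chi-square per degree of freedom 3.45). Alternatives were RLE and total-count scaling, DESeq2 1.42.0, limma-voom (limma 3.58.1), the replicate number as a block, other filters, 1 fit of 20 libraries and each library left out.

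The members, gene lists and marker lists were chosen with earlier results of these data known, so nothing here is independent support for the calls of Hmcn2, Trub2 and Cercam. Genes were named where they were called, had an unadjusted p under 0.05 in both regions, were among the 10 smallest p in a region, the 4 nearest tested genes per side, overlapped a called gene, had 1 of the 4 smallest cortex p-values of a list, or 1 of the 6 largest called wild-type region differences per direction. Slc27a4, Urm1, Lamc3 and Eng were named after their values were seen. Some genes that met these rules are not reported here.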

Additional observations from a re-analysis of the deposited data

Results flagged for a closer look

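In groups of 5 libraries, a library far from the other 4 was looked for in every tested named gene and Ncs1, in each region and genotype. Of 198 such groups 17 held one, where chance gives about 1 in 20 groups.

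In Ncs1-/- cortex, Ak1 was 91.3 CPM in replicate 1 against 79.0 to 82.5 in the other libraries, Ptpa 134 CPM in replicate 1 against 116 to 121, Ralgps1 90.4 CPM in replicate 1 against 103 to 107, Set 152 CPM in replicate 2 against 159 to 161, and Tor2a 10.9 CPM in replicate 4 against 12.6 to 13.2. In wild-type cortex, Ralgps1 was 110 CPM in replicate 5 against 85.7 to 91.9 in the others, and Dnm1 1210 CPM in replicate 3 against 1030 to 1080.

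In Ncs1-/- hippocampus, Med27 was 15.1 CPM in replicate 1 against 10.6 to 11.9, Plpp7 16.2 CPM in replicate 1 against 14.0 to 14.6, Dolk 13.4 CPM in replicate 3 against 16.3 to 17.4, Lcn2 5.31 CPM in replicate 4 against 0.0297 to 0.697, and D330023K18Rik 0.842 CPM in replicate 5 against 1.34 to 1.43. In wild-type hippocampus, Spout1 was 26.6 CPM in replicate 1 against 20.6 to 22.1, Garnl3 40.1 CPM in replicate 1 against 24.5 to 28.1, D330023K18Rik 0.793 CPM in replicate 3 against 1.13 to 1.22, Ncs1 470 CPM in replicate 3 against 430 to 441, and Wdr34 12.3 CPM in replicate 5 against 13.5 to 13.8. Hmcn2, Trub2, Coq4, Cercam and Fnbp1 held none.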

How the results depend on the processing

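With each library left out, 2 to 5 flanking genes were called in cortex, 2 to 3 in hippocampus, 0 in the interaction, 21 to 30 between regions in wild type and 24 to 30 in Ncs1-/-. The 5 came without wild-type cortex replicate 5, where 563 genes were called in all. They were Hmcn2, Trub2, Cercam, 1110008P14Rik (-0.47, edgeR adjusted p 0.00872) and Ralgps1 (0.19, edgeR adjusted p 0.0475). DESeq2 called 151 genes in cortex among 6621 given an adjusted p, Trub2 and 1110008P14Rik of them flanking. It gave Hmcn2 no adjusted p there, so Hmcn2 was not set against the threshold. The DESeq2 log2 fold change of Hmcn2 in cortex was 3.12, with an unadjusted p of 9.67e-31. Over all 20 libraries 7 genes were called in cortex, 3 of them flanking. The log2 fold change of Hmcn2 stayed within 2.95 to 3.30 in cortex and 3.25 to 3.61 in hippocampus, and that of Cercam within -1.11 to -0.94 and -1.50 to -1.31.

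The labels tie no replicate number to an animal, and not every same-numbered pair of libraries deviated together, so the numbers were not taken as pairs. Deviations correlated at -0.05 to 0.15 in cortex, -0.01 to 0.31 in hippocampus and -0.14 to 0.37 across regions, and the best match was the same number for 1 of 5, 2 of 5 and 8 of 10 libraries; the last is a hint from the data, not the design, that a number links a hippocampus to a cortex library. With the replicate block 2 flanking genes were called in cortex and 3 in hippocampus, and across regions 0 in the interaction, 28 between regions in wild type and 33 in Ncs1-/-.

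For single genes, 1758 of the alternative values kept direction and side of the threshold, 22 turned sign, 7 gained and 8 lost a call; the cause was not tested. Those that turned sign belong to 6 results. In hippocampus Ass1 was 0.02 with limma-voom and 0.00 with the replicate block, Gm5424 0.04 with limma-voom. With 1 library left out, Coq4 ranged from -0.05 to 0.07 and D330023K18Rik from -0.13 to 0.12 in cortex, Ass1 from -0.10 to 0.05, Gm5424 from -0.47 to 0.19 and Gpr107 from -0.01 to 0.03 in hippocampus, and the interaction of Trub2 from -0.02 to 0.08. Between regions in Ncs1-/-, Med27 was not called without cortex replicate 3 or hippocampus replicate 1, nor Tor2a without cortex replicate 4 or hippocampus replicate 1. Aif1l was called there without cortex replicate 1, at an edgeR adjusted p of 0.0194, and with the block, at 0.0417. Depth limits the folds of Hmcn2, since wild-type libraries held 4 to 15 counts of it.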
